A study of Mus musculus with 3 samples.

Results

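The genes described here are 10 genes of MHC class I antigen presentation, and they were taken by symbol from a fixed list: the heavy chains H2-K1 and H2-D1, the light chain B2m, the peptide transporter Tap1 and Tap2, the loading chaperone Tapbp, the immunoproteasome subunits Psmb8, Psmb9 and Psmb10, and the transcriptional activator Nlrc5. They are 10 of the 32285 genes in the count matrices, and the rule uses their symbols only, although the list was drawn up with earlier results of these data known. All 10 were detected in each library and passed the filter on low values, which 10175 genes passed: a level averaged over the 3 libraries of 5 or more UMIs per 1000000 UMIs (CPM).

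MHC class I molecules show peptides from inside the cell to CD8 T cells. Proteasomes cut proteins into peptides, TAP moves the peptides into the endoplasmic reticulum, and tapasin (Tapbp) holds an empty heavy chain and beta-2 microglobulin (B2m) next to TAP until a peptide binds. Interferon-gamma replaces the catalytic proteasome subunits Psmb5, Psmb6 and Psmb7 by Psmb8, Psmb9 and Psmb10 in newly built particles, and NLRC5 drives transcription of the class I genes. In the lung, capillary endothelial cells (ECs) carry high class I levels and meet both circulating T cells and arriving tumor cells.

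The ECs came from the lungs of WT C57BL/6 mice and were profiled in 3 droplet libraries that count RNA from its 3′ end, with a single library in each group. For the control, mice received PBS into the tail vein and were taken at 6 h, and for the other libraries mice were taken 6 h or 30 h after 200000 B16-F10 cells, a pigmented melanoma line of the same strain, in 100 µl of PBS. Cells were sorted as Pecam1+ and Ptprc-, and per its label the 6 h library also holds melanoma cells sorted by a tracker dye. The labels give 2 mice per treatment and the study's methods another number, so cells of several mice were pooled in 1 library. No PBS library taken at 30 h was analysed here, so in the 30 h comparison the time after injection and the tumor cells cannot be told apart. With 1 library per group no difference has a replicate check, no test between groups was made, and every interval below is a 95% interval that covers counting error only.

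ECs were the barcodes with 1000 to 5000 detected genes, under 20% mitochondrial UMIs and at least 2 UMIs of Pecam1 and Cdh5 together. There were 11231 ECs in the control, 10583 in the 6 h and 9278 in the 30 h library, with 81485079 to 90853430 UMIs in sum and a median of 7782 to 8676 UMIs per barcode. Between 22 and 38 EC barcodes were shared by any pair of libraries, at most 0.399% of either. The 30 h library stood apart in RNA composition. Gene models that hold ribosomal RNA took 2.13% of its EC UMIs, against 0.501% in the control and 0.626% in the 6 h library, and its median mitochondrial share was 2.81%, against 2.45% and 2.39%. The summed level of 9 epithelial and red cell markers, genes that ECs do not make, was 4067 CPM in the control, 2717 at 6 h and 1199 at 30 h, with all 9 detected. Most of these markers were also set against droplets with under 100 UMIs. The upper estimate of free RNA was then 11.4% of EC UMIs in the control, 11.5% at 6 h and 8.99% at 30 h. The estimate thus did not fall as the marker level did. Ptprc, absent by sort, was at 3.16 to 6.53 CPM. The summed level of 10 blood cell markers was 98.4 CPM in the control, 152 at 6 h and 78.6 at 30 h, all 10 detected, and that of 7 melanoma markers 1.28, 14.3 and 1.06 CPM, with Tyrp1 at 0 in the control and 30 h libraries.

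Of the 10 genes, 7 lie on mouse chromosome 17, in or next to the MHC (positions from GENCODE M21, GRCm38). Psmb9 (chr17:34181987-34187764), Tap1 (chr17:34187553-34197225), Psmb8 (chr17:34197721-34201454) and Tap2 (chr17:34203527-34216321) stand side by side within 34335 bases. Tap1 and Psmb9 run in opposite directions and their models overlap by 212 bases at the 5′ ends. H2-K1 (chr17:33996017-34000347), Tapbp (chr17:33915899-33929292) and H2-D1 (chr17:35262730-35267499) lie in the same region, B2m on chromosome 2 (chr2:122147686-122153083), and Psmb10 (chr8:105935735-105938444) and Nlrc5 (chr8:94434356-94527272) on chromosome 8. All of B2m and Psmb10 lie within models on the other strand (Patl2 and Gm16156). Gm20496, on the other strand of Psmb8, covers 2139 of its bases with the 3′ end. Zbtb22 shares 3422 bases with Tapbp on the same strand, without the Tapbp 3′ end. The sources used here do not state whether counting used strand. H2-K1, H2-D1 and the H2-Q genes are near-identical over long stretches, so how reads were split among them is uncertain.

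Promoter sequences were available for 8 of the 10 genes (RefSeq, GRCm38.p6). The 250 bases before the start are shown for the heavy chains and for B2m, the components of the class I molecule, and for Tap1, whose window shares 275 of 300 bases with that of Psmb9. Capitals mark exact matches on either strand to GAANNGAAA (one form of an interferon response element core) and GGGNNTTCC (one form of a kappaB-type site). They also mark CCAAT (bound by NF-Y), TGACG (a CRE half-site, as in the X2 box of MHC promoters) and TTCNNNGAA (a STAT-type site).
H2-K1, chr17:34000334-34000583, minus strand: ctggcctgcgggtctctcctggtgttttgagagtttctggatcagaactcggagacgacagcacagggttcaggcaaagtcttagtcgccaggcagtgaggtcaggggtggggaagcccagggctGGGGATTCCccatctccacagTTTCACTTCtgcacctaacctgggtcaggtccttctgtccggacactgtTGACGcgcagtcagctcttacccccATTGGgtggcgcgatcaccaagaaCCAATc
H2-D1, chr17:35262844-35263093, plus strand: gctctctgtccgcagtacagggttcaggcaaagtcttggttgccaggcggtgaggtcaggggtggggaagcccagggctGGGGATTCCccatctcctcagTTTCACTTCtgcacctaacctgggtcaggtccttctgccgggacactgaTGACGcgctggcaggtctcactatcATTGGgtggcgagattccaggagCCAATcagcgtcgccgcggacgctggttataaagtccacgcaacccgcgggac
B2m, chr2:122147437-122147686, plus strand: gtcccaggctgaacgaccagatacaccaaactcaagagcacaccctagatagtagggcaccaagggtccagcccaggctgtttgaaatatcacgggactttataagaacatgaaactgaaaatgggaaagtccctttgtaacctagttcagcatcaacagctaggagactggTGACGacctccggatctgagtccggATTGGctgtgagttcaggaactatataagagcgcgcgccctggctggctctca
Tap1, chr17:34187306-34187555, plus strand: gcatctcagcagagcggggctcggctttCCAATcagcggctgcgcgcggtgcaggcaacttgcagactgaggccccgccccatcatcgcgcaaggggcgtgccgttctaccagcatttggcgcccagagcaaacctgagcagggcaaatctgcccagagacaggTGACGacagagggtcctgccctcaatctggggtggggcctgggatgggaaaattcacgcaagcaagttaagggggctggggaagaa

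The H2-K1 and H2-D1 windows held the same arrangement of matches: GGGNNTTCC, then GAANNGAAA on the other strand, then TGACG, then CCAAT once on each strand. In H2-K1 the GGGNNTTCC match lay at -125 to -117 and the GAANNGAAA match at -104 to -96 from the start of the window shown, and in H2-D1 they lay at -171 to -163 and -150 to -142. The printed B2m window held TGACG and CCAAT, as did that of Tap1. Longer stretches in the B2m window, gaaactgaaa and gggaaagtccc, cannot match the letters used. A lack of interferon response or kappaB-type elements there was thus not shown. Over all 32851 promoter windows of 300 bases in the table, 7.52% held GAANNGAAA, 5.82% GGGNNTTCC, 37.4% CCAAT, 20.8% TGACG and 8.30% TTCNNNGAA. Of the windows not shown, Tapbp held CCAAT only, Psmb8 TTCNNNGAA only, and Psmb10 none of these motifs. RefSeq held another H2-K1 start, from which these matches lay at -111 to -103 and -90 to -82. A match is a stretch of letters and says nothing of binding in these cells.

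At 6 h after tumor cell injection, each of the 10 genes was higher than in the control library, from 0.08 for B2m to 0.54 for Nlrc5 on the log2 scale of (CPM + 1). Of all 10175 genes, 4714 were higher. The median of the 10 was 0.30, against -0.01 over all 10175 genes. The limit of size used here is 0.32 on this scale, which is 25% more or 20% less. Past it, H2-K1, Tap2, Psmb8, Psmb10 and Nlrc5 were higher and no gene was lower. H2-K1, at 0.33, was close to the limit and fell to 0.31 in 2 of 12 processing alternatives. Of all genes, 6.56% were past it on the higher side and 5.88% on the lower side. At 30 h the genes went separate ways: Tapbp and Psmb10 were higher than control past the limit and Tap1 and Nlrc5 lower, with a median of -0.06 against -0.07 over all genes. Here 12.2% of all genes were higher and 19.1% lower, so 2 of 10 in each direction was near the background. Nlrc5 was no longer past the limit in 1 of 12 alternatives (-0.30 with 10 CPM added). The balance of this background depends on the scaling, with 1238 genes higher and 1948 lower in CPM and 1442 and 1589 with median-of-ratios size factors. Between 30 h and 6 h, H2-K1, Tap1, Tap2, Psmb8 and Nlrc5 were lower past the limit, 5 of 10 against 16.6% of all genes, and none was higher, against 12.7%. Psmb8, at -0.33, was no longer past the limit in 8 of 12 alternatives (-0.32 to -0.30), which left 4 of 10, and Tapbp, at 0.31, was past it on the higher side in 3 (0.33 to 0.34). With size factors 1478 genes were higher and 1429 lower in this comparison, against 1291 and 1694 in CPM. The median was -0.29 against -0.07 over all genes. Both tumor comparisons share the control library, and the 30 h and 6 h comparisons share libraries as well, so they are not independent of each other.

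**Figure D1:**
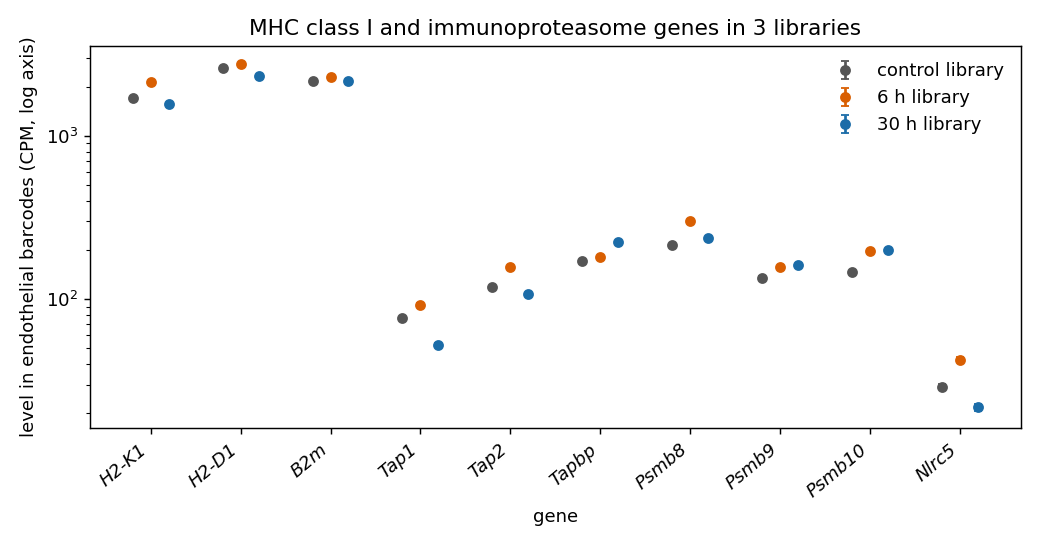
Level of each of the 10 genes (CPM, log axis) in the endothelial barcodes of the control (grey), 6 h (orange) and 30 h (blue) libraries, with exact Poisson intervals that cover counting error only and are mostly narrower than the points. Nlrc5, the lowest, stood at 29.1 CPM in the control, 42.7 at 6 h and 21.8 at 30 h.

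The heavy chains and B2m, which form the class I molecule at the surface, made up most of the UMIs of the 10 genes. H2-K1 was at 1714 CPM in the control, 2149 at 6 h and 1568 at 30 h, so the 6 h library was highest and the 30 h library lowest. The log2 ratio was 0.33 (95% interval 0.32 to 0.34) at 6 h and -0.13 (-0.14 to -0.12) at 30 h against control. H2-D1, the other classical heavy chain of this strain, had the same order, with 2593 CPM in the control, 2776 at 6 h and 2330 at 30 h. Its differences were smaller, 0.10 (0.09 to 0.11) and -0.15 (-0.16 to -0.15). B2m, which binds every class I heavy chain, was at 2174, 2298 and 2171 CPM, the least change of the 10 genes: 0.08 (0.07 to 0.09) at 6 h and an interval of -0.01 to 0.01 at 30 h, where its sign depended on the scaling. Thus H2-K1 did not keep a fixed ratio to the light chain across the libraries, whereas H2-D1 stayed close to it at 6 h and departed at 30 h. The uncertain split of reads among the heavy chain genes and the Patl2 model over B2m limit this comparison. Together the 10 genes took 0.737% of EC UMIs in the control, 0.835% at 6 h and 0.707% at 30 h.

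Both chains of the peptide transporter were highest at 6 h and lowest at 30 h. Tap1 was at 76.4 CPM in the control, 92.1 at 6 h and 52.2 at 30 h, which gave log2 ratios of 0.27 (0.22 to 0.32) and -0.54 (-0.61 to -0.49). Tap2 was at 118, 156 and 107 CPM, with 0.40 (0.37 to 0.44) and -0.14 (-0.18 to -0.10). At 30 h the Tap1 level was thus further below control than that of its partner Tap2, with intervals that did not overlap. Tapbp, the chaperone that bridges the transporter and the heavy chain, took another course: 171 CPM in the control, 181 at 6 h and 225 at 30 h, highest in the last. Its log2 ratio was 0.08 (0.05 to 0.11) at 6 h and 0.39 (0.36 to 0.42) at 30 h.

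The 3 immunoproteasome subunits were above control at both times. Psmb8, the chymotrypsin-like subunit that takes the place of Psmb5, was at 216 CPM in the control, 299 at 6 h and 237 at 30 h, with log2 ratios of 0.47 (0.45 to 0.50) and 0.14 (0.11 to 0.17). Between 30 h and 6 h it differed by -0.33 on the log2 scale. Psmb10, which takes the place of Psmb7, was at 147, 198 and 200 CPM, with 0.42 (0.39 to 0.46) and 0.44 (0.41 to 0.48). Psmb9, which takes the place of Psmb6, was at 136, 156 and 161 CPM, with 0.20 (0.17 to 0.24) and 0.25 (0.21 to 0.29). Between 30 h and 6 h Psmb9 differed by 0.04 and Psmb10 by 0.02, and the sign of the latter turned in 1 of 12 processing alternatives. Set against the constitutive subunit it replaces, each was higher than in the control library at both times. The log2 change of the ratio of UMIs was 0.31 (0.26 to 0.35) at 6 h and 0.09 (0.04 to 0.14) at 30 h for Psmb8 over Psmb5. It was 0.16 (0.11 to 0.21) and 0.11 (0.06 to 0.16) for Psmb9 over Psmb6. For Psmb10 over Psmb7 it was 0.32 (0.27 to 0.38) and 0.28 (0.23 to 0.33). These ratios are within a library and do not depend on the scaling to CPM.

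Nlrc5, the activator of class I transcription, had the widest spread between libraries of the 10 genes. It was at 29.1 CPM (28.0 to 30.3) in the control, 42.7 (41.3 to 44.1) at 6 h and 21.8 (20.8 to 22.8) at 30 h, and these intervals did not overlap. Its log2 ratio was 0.54 (0.48 to 0.62) at 6 h, -0.40 (-0.51 to -0.33) at 30 h and -0.94 (-1.05 to -0.89) between 30 h and 6 h.

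RNA outside cells is a limit on these levels. In droplets with under 100 UMIs, H2-K1 was at 1725 CPM in the control, 2050 in the 6 h and 1523 in the 30 h library, close to its level in ECs and in the same order. Nlrc5 was lower there, at 19.2, 27.1 and 12.3 CPM. Psmb8 and Psmb10 were higher there than in ECs, at 293, 374 and 322 CPM and at 203, 253 and 287 CPM. Each of the 10 genes was also higher at 6 h than in the control in these droplets. With the free RNA subtracted the 6 h median stayed at 0.30. Subtracting RNA that differed in the same direction could move it little, so this is a weak check. With barcodes that carried markers of other cells left out, the 6 h median was 0.29.

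**Figure D2:**
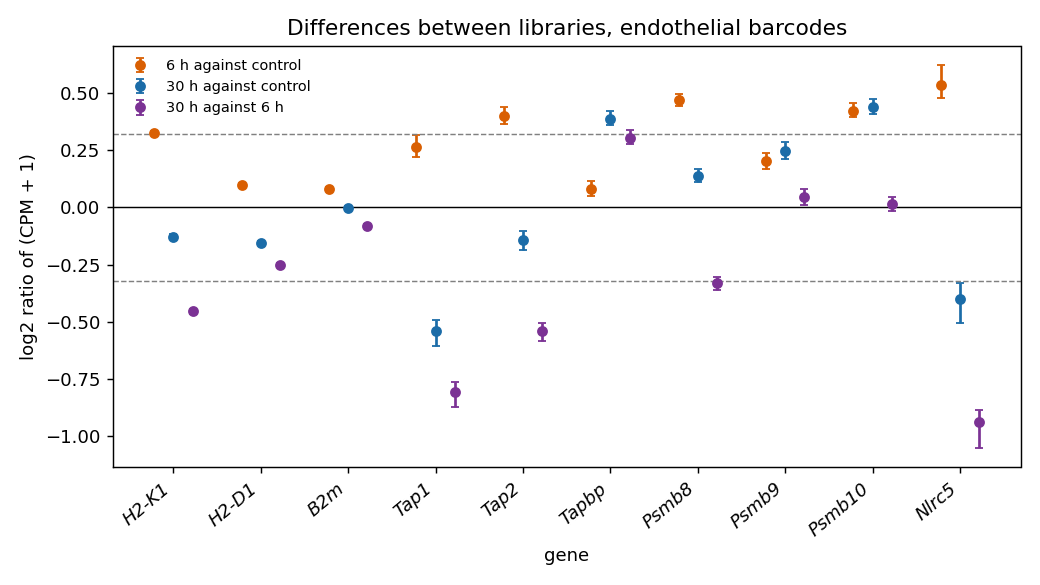
Log2 ratio of (CPM + 1) of each gene at 6 h against control (orange), 30 h against control (blue) and 30 h against 6 h (purple), with exact 95% conditional intervals of the ratio of UMIs (counting error only). Dashed lines mark the limit of size, 0.32: the orange points all lie above 0, whereas the blue points lie on both sides, from -0.54 for Tap1 to 0.44 for Psmb10.

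Around the 10 genes, related genes from fixed lists were read in the same ECs. Other class I heavy chains, nonclassical and class I-like molecules, had 11 of 16 genes past the filter. At 6 h, 2 were higher and 2 lower past the limit (6.56% and 5.88% of all genes), with a median of 0.01. At 30 h 3 were higher and 3 lower (12.2% and 19.1%), with a median of 0.23. H2-Q4 and H2-Q6, nonclassical genes close in sequence to the classical heavy chains, had the same order of libraries as H2-K1: H2-Q4 was at 189 CPM in the control, 262 at 6 h and 141 at 30 h, and H2-Q6 at 196, 251 and 102. The log2 ratio of H2-Q6 at 30 h was -0.94 and that of H2-T22 -0.59. Fcgrt, the class I-like receptor that recycles IgG and albumin, ran the other way, with 27.7, 20.3 and 43.6 CPM and ratios of -0.43 and 0.64, and H2-T24 was at 0.71 at 30 h. Different members of this family thus lay on opposite sides of the control, as did genes over the whole EC profile.

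The peptide loading and trimming list (13 of 13 genes tested) had 3 genes higher and none lower at 6 h, with a median of 0.16, and 5 higher and 2 lower at 30 h, with a median of 0.17. The genes higher at 30 h included the lectin chaperone Calr, at 154 CPM in the control, 189 at 6 h and 395 at 30 h, a log2 ratio of 1.35. Pdia3, the disulfide isomerase of the loading complex, was at 0.76, Hspa5, the general chaperone BiP, at 0.67, and Canx, which holds newly made heavy chains, at 0.60. Tapbp, described above, was 0.39 at the same time. Calr, Pdia3, Hspa5 and Canx serve many proteins of the endoplasmic reticulum, not class I alone. At 6 h Hspa5 (0.73) and Lap3, a cytosolic peptidase (0.70), were highest of the list.

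The 20S core outside the immunoproteasome differed little, whereas its activators did not stay level. None of the 3 constitutive catalytic subunits and none of the 11 other subunits of the 20S core passed the limit at either time. Psmb5 was at 145, 162 and 150 CPM, Psmb7 at 92.6, 99.6 and 104, and the core list ranged from -0.04 to 0.09 at 6 h and from -0.17 to 0.15 at 30 h. Of 17 subunits of the 19S particle, none passed at 6 h and 2 were lower at 30 h, among them Psmd11 at -0.41. At 30 h 16 of the 17 were below 0, a larger share than the 6012 of all 10175 genes. The list median was -0.09, near the -0.07 of all genes. Of the 5 activators and assembly factors, 1 was higher at 6 h. That was Psme2, a subunit of the interferon-inducible cap PA28, at 0.52. At 30 h 3 were higher and 1 lower: Psme1, the partner of Psme2, was at 0.57, the assembly factor Pomp at 0.46 and Psme2 at 0.41, while Psme4, the PA200 cap, was at -0.70.

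Among 22 tested regulators of class I transcription, 5 were higher and none lower at 6 h (median 0.15), and 1 was higher and 7 lower at 30 h (median -0.20). Irf1, an interferon-induced activator of class I promoters, was at 335 CPM in the control, 415 at 6 h and 230 at 30 h, with a log2 ratio of -0.54 at 30 h. Stat3 was at 0.49 and -0.61, Relb, an NF-kappaB subunit, at 0.68 at 6 h, and Stat2 and the Polycomb methyltransferase Ezh2 at -0.61 and -0.65 at 30 h. Of 11 interferon receptors and signalling genes, 4 were higher at 6 h and 3 lower at 30 h. The feedback inhibitors Socs1 (0.67 and -0.43) and Socs3 (0.61 and -0.50) led at both times. The other gene lower past the limit at 30 h was the kinase Jak2. The genes of this list that passed thus include inhibitors of interferon signalling as well as a kinase.

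Of 13 GTPases induced by interferon-gamma, 10 were higher past the limit and none lower at 6 h, with a median of 0.42. Gbp2 was at 82.5 CPM in the control and 143 at 6 h, a ratio of 0.79, and Gbp4 was at 0.71. At 30 h 1 was higher and 6 lower, with a median of -0.30. Iigp1 was at 307, 365 and 157 CPM and -0.96 at 30 h, Ifi47 at -0.70 and Gbp5 at -0.67, while Gbp9 was at 0.68. Of the type I interferon-stimulated genes, 3 of 14 were higher and none lower at 6 h (median 0.09), with Zbp1 at 0.85 and Isg15 at 0.59. At 30 h 2 were higher and 6 lower (median -0.20), with Ifit1 at -0.90, Ifit3b at -0.66, Ifit3 at -0.64 and Bst2 at 0.63. Of 7 MHC class II genes, 1 was higher at 6 h, the class II activator Ciita at 0.84. At 30 h 3 were higher and 1 lower, with H2-DMa at 0.64, H2-Ab1 at 0.48, H2-Aa at 0.40 and the invariant chain Cd74 at -0.64. The shares of all genes past the limit given above apply to each of these counts.

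**Figure D3:**
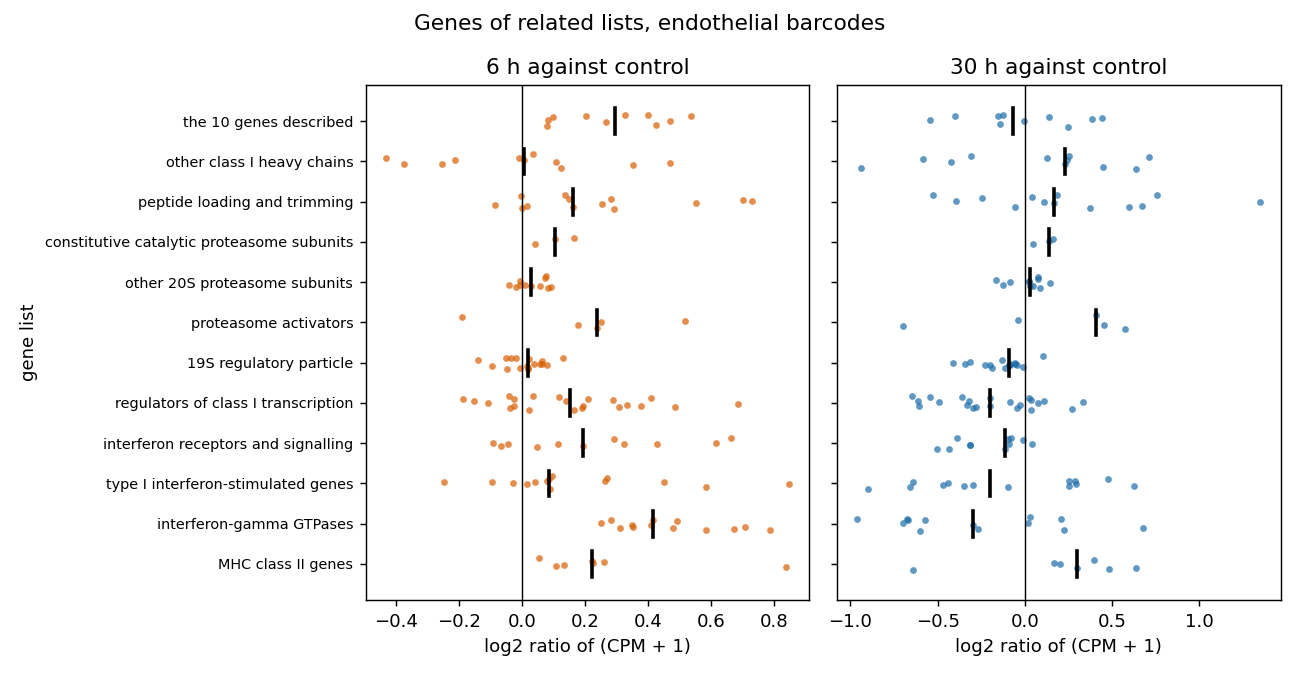
Log2 ratio of (CPM + 1) at 6 h (left) and 30 h (right) against control for each tested gene (points) of the 10 genes described and of 11 related lists, with the median as a black bar. The interferon-gamma GTPases have the highest median at 6 h, 0.42, and at 30 h their median is -0.30. The 20S core lies close to 0 in both panels.

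ECs were then split by markers of their class, none of which is among the 10 genes. A barcode was called aCap-like (aerocytes, the large capillary cells of gas exchange), artery-like, vein-like or LEC-like (lymphatic) with at least 10 UMIs and 3 genes of that class's markers, and gCap-like (general capillary) where only those of gCap were reached. gCap-like barcodes numbered 7676 in the control, 7459 at 6 h and 5854 at 30 h, aCap-like 1570, 1261 and 1578, vein-like 584, 431 and 431, artery-like 277, 188 and 297, and LEC-like 70, 52 and 52. The artery gate was soft, with 693, 474 and 437 ECs within 2 UMIs of its minimum. Artery-like barcodes had medians of 15, 14 and 18 artery marker UMIs and of 33, 28.5 and 28 gCap marker UMIs. The median of aCap marker UMIs in aCap-like barcodes was 51, 47 and 71, so this class was not alike across libraries.

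In the control library 1 of the capillary classes had the highest level of most of the 10 genes. Artery-like barcodes led for Tapbp, vein-like for Psmb10 and LEC-like for Nlrc5, each within counting error of gCap-like ones. aCap-like barcodes led for H2-D1, with 3044 CPM against 2580 in gCap-like ones (log2 ratio 0.24, 0.22 to 0.25), and for B2m, with 2655 against 2122 (0.32, 0.31 to 0.34). This order held in all 3 libraries. gCap-like barcodes led for Psmb8 in the control, 230 CPM against 189 in aCap-like ones, and for Psmb9, 151 against 92.5, and the log2 ratio of aCap-like to gCap-like barcodes was -0.28 for Psmb8 and -0.70 for Psmb9. Lymphatic cells were lowest of the 5 classes for every gene in every library, apart from Nlrc5 in the control and 6 h libraries. The difference to gCap-like barcodes was within counting error for Nlrc5 in each library and for Tap2 at 30 h (-0.30, -0.77 to 0.12). In the control, H2-K1 was at 753 CPM in LEC-like and 1802 in gCap-like barcodes (-1.26, -1.40 to -1.12), B2m at 999 against 2122 (-1.09), Psmb10 at 51.3 against 151 (-1.53, -2.12 to -1.04), and Tap1 at 13.7 against 81.7 (-2.49, -3.79 to -1.60). The venous and arterial classes of the control lay between for H2-K1, H2-D1 and B2m, within 0.25 of gCap-like on the log2 scale. At 30 h vein-like barcodes led for H2-K1, Tapbp, Psmb8, Psmb9 and Psmb10, and only for H2-K1 was the difference to gCap-like ones beyond counting error.

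At 6 h all 10 genes were above control in gCap-like, aCap-like and vein-like barcodes, 7 in artery-like and 5 in LEC-like ones. Of all genes, 4692 of 10023 were above control in gCap-like, 4993 of 9879 in aCap-like and 4788 of 10173 in vein-like barcodes. In artery-like barcodes 5232 of 10322 were, and in LEC-like ones 5069 of 10538. The median of the 10 genes was 0.27 in gCap-like, 0.31 in aCap-like, 0.31 in vein-like and 0.11 in artery-like barcodes, and 0.00 in LEC-like ones. Over all genes the medians were -0.01, 0.00, -0.02, 0.01 and -0.02 in the same order. Past the limit, 4 genes were higher in gCap-like barcodes (7.33% of all genes), 5 in aCap-like (5.16%) and 5 in vein-like (10.7%), and none was lower in any of these (6.35%, 5.80% and 12.6%). In artery-like barcodes 3 were higher, against 16.5% of all genes, and none lower, against 15.1%, and the counting interval around the median ran from -0.16 to 0.39. In LEC-like barcodes 1 was higher, against 26.4% of all genes, and none lower, against 28.5%. That gene was Tap1, at 1.41 (0.16 to 2.90). Psmb8 was at 0.45 in gCap-like, 0.51 in aCap-like, 0.49 (0.30 to 0.67) in artery-like and 0.56 (0.45 to 0.67) in vein-like barcodes, but -0.11 (-0.66 to 0.42) in LEC-like ones, an interval too wide for a direction. Nlrc5 was at 0.50, 0.62, 0.85 (0.35 to 1.42) and 0.36 (0.02 to 0.73) in the blood vessel classes in the same order. In artery-like barcodes 3 of the 10 genes were below 0, Tapbp at -0.09, H2-D1 at -0.07 and B2m at -0.02. The differences between classes were not tested.

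At 30 h the median was -0.05 in gCap-like, -0.09 in aCap-like, -0.06 in artery-like, 0.11 in vein-like and 0.13 in LEC-like barcodes. Over all genes it was -0.07, -0.08, -0.07, -0.06 and -0.04 in the same order. The artery-like median changed sign with the marker minimum doubled (0.11), and the averaged counting limits of its middle genes held 0. In gCap-like barcodes 2 genes were higher and 2 lower past the limit (12.4% and 18.5% of all genes), in aCap-like 3 and 2 (14.6% and 22.8%), in vein-like 3 and 1 (14.2% and 21.3%), in artery-like 2 and 1 (18.3% and 26.9%), and in LEC-like 3 and 2 (25.5% and 30.3%). Tap1 was below control in each class, from -0.33 (-0.45 to -0.21) in aCap-like to -0.66 (-1.03 to -0.32) in artery-like barcodes, and in LEC-like ones it was at -1.58 with an interval of -5.07 to 0.52. Tapbp was above control in the blood vessel classes, between 0.30 and 0.41, and at 0.55 (-0.02 to 1.13) in LEC-like barcodes, an interval that held 0. Of the immunoproteasome subunits, Psmb9 was at 0.18 (0.14 to 0.22) in gCap-like but 0.55 (0.46 to 0.65) in aCap-like and 0.42 (0.28 to 0.56) in vein-like barcodes, with 0.17 (-0.02 to 0.37) in artery-like and -0.03 (-0.90 to 0.82) in LEC-like ones. Psmb8 was at 0.06 (0.03 to 0.10) in gCap-like, 0.30 (0.24 to 0.37) in aCap-like, 0.28 (0.16 to 0.40) in vein-like and 0.37 (0.20 to 0.54) in artery-like barcodes, and at -0.12 (-0.64 to 0.39) in LEC-like ones. H2-K1 was below control in gCap-like (-0.11), aCap-like (-0.20) and artery-like (-0.15) barcodes and above it in vein-like, 0.09 (0.05 to 0.14), and LEC-like ones, 0.34 (0.15 to 0.53). Psmb9 in aCap-like barcodes, low in the control at 92.5 CPM, was at 136 CPM at 30 h.

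**Figure D4:**
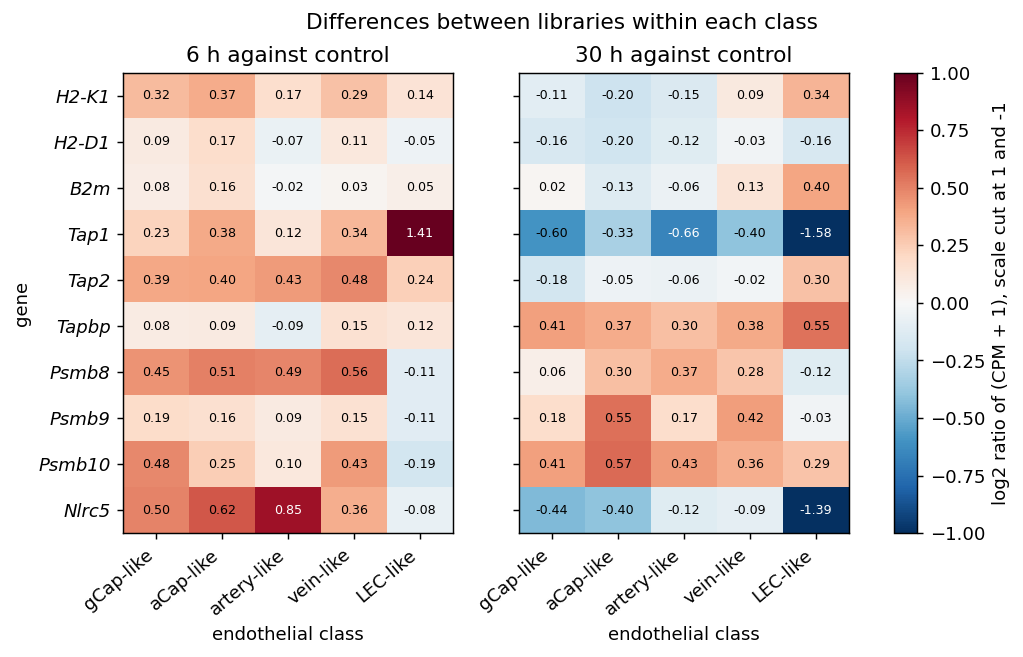
Log2 ratio of (CPM + 1) of each gene (rows) in each class (columns) at 6 h (left) and 30 h (right) against control, with red for higher and blue for lower. The row of Tap1 is blue in all 5 classes at 30 h and that of Tapbp red. LEC-like values rest on 52 to 70 barcodes per library and have wide intervals.

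The level per barcode was read after each was thinned to 2000 UMIs, so that depth was equal. In gCap-like barcodes the 10 genes together had a mean of 15.2 UMIs in the control, 17.0 at 6 h and 14.5 at 30 h, with an SD over barcodes of 5.90, 6.36 and 5.84. At 6 h the low, middle and high ends of the distribution all lay above those of the control, and at 30 h the middle and the high end lay below: the 5th percentile was 6, 7 and 6 UMIs, the median 15, 16 and 14, and the 95th percentile 26, 28 and 25. Barcodes above the control's 95th percentile were 3.94% (3.52 to 4.40) in the control, 7.63% (7.03 to 8.25) in the 6 h library and 3.25% (2.81 to 3.74) in the 30 h library. In aCap-like barcodes the mean was 16.6, 19.5 and 14.9 UMIs, a wider swing than in gCap-like ones. Cells are not replicates, and these spreads describe single libraries. Before thinning, 43, 24 and 14 gCap-like barcodes had under 2000 UMIs and were left out.

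**Figure D5:**
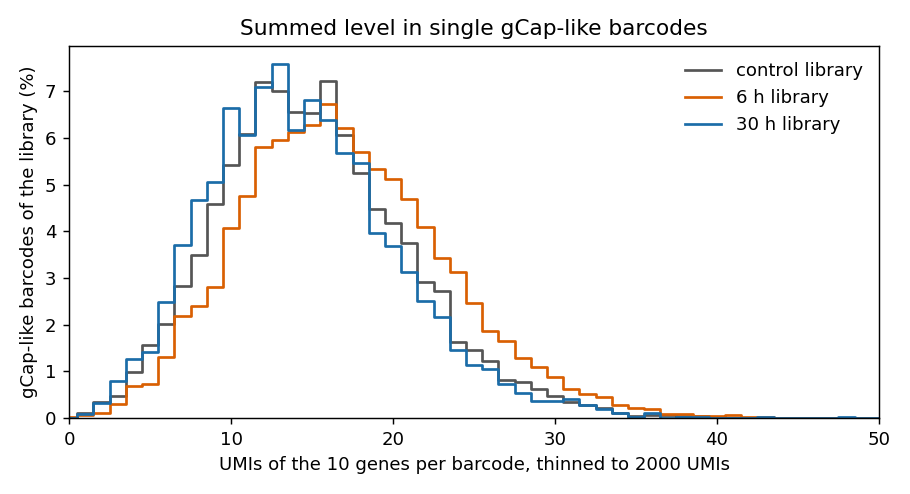
Share of gCap-like barcodes of each library (%, vertical axis) by the number of UMIs of the 10 genes (horizontal axis) after thinning to 2000 UMIs. The 6 h curve (orange) lies to the right of the control (grey), with medians of 16 and 15 UMIs, and the 30 h curve (blue) to the left, with a median of 14.

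A subset of gCap-like barcodes in every library had high interferon-stimulated genes (at least 1000 CPM and 3 UMIs over Ifit1, Ifit2, Ifit3, Ifit3b, Isg15, Rsad2, Cmpk2 and Usp18, none of them among the 10). It held 861 barcodes in the control, 962 at 6 h and 455 at 30 h, or 11.2%, 12.9% and 7.77%. Within each library the genes fell in an order by how much higher they were in this subset than in the other gCap-like barcodes. Nlrc5 was 1.46 (1.34 to 1.64) higher on the log2 scale in the control, and in the 6 h and 30 h libraries it was 1.21 higher (1.10 to 1.36 and 1.02 to 1.48). Tap1 followed with 0.93, 0.88 and 1.06 and Psmb8 with 0.70, 0.53 and 0.55, while H2-D1 was only 0.12, 0.13 and 0.06 higher. In each library the activator and the transporter chain thus differed more between these barcodes than the heavy chain did. The median depth of the subset and of the rest was alike, 7677 and 7571 UMIs in the control. With these barcodes left out of all ECs, the 6 h median was 0.29.

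Barcodes with high MHC class II genes (the same limits over H2-Aa, H2-Ab1, H2-Eb1 and Cd74) were 17.7% of gCap-like barcodes in the control, 20.2% at 6 h and 17.5% at 30 h. They had another profile: H2-K1 was 0.28 (0.26 to 0.31), 0.30 (0.28 to 0.32) and 0.36 (0.34 to 0.38) higher than in the rest, and Nlrc5 0.15 (-0.02 to 0.32), 0.16 (0.03 to 0.30) and 0.07 (-0.16 to 0.29). All genes but Nlrc5 were above the rest in each library, with intervals that did not hold 0. Tap1 was 0.31, 0.42 and 0.30 higher and Psmb8 0.20, 0.39 and 0.32. The rise was thus not particular to the heavy chain. Nlrc5 had the smallest difference in each library, and its interval held 0 in the control and 30 h libraries.

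The genes whose level per barcode was most like the sum of the 10 were ranked among the 6898 genes that averaged 20 CPM or more, by the mean Pearson r over the 3 libraries in thinned gCap-like barcodes. They were Itm2b (0.30), Ifitm3 (0.28), Ramp2 (0.27), Ly6a (0.27), H2-Q7 (0.24), Ly6e (0.23), Cldn5 (0.22), H2-T23 (0.20), Ubb (0.19) and Gpihbp1 (0.19). The 99th percentile over all these genes was 0.11. The sum is mostly H2-K1, H2-D1 and B2m, so the ranking says little of the other genes. Between pairs of the 10 genes the mean r ran from 0.27 (H2-K1 with H2-D1) to -0.003 (H2-D1 with Nlrc5). Low counts also hold r down, which favours abundant genes. The points are barcodes of 1 library that share its depth and free RNA, and the values are weak, so the ranking is a description.

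The 6 h library also held 29 barcodes with at least 4 of 8 melanoma markers and under 5 UMIs of Pecam1 and Cdh5 together, 224938 UMIs in sum, and no such barcodes were found in the other libraries. The 29 were taken from all barcodes with at least 300 genes, without the limits on genes and mitochondrial UMIs used for ECs. B16-F10 is known for low class I display. Their class I genes were low: H2-K1 was at 75.6 CPM (44.0 to 121) against 2149 in the ECs of the same library, H2-D1 at 262 (200 to 338) against 2776, and B2m at 396 (318 to 487) against 2298. Tap1 and Tap2 had 1 UMI each, Psmb8 and Psmb10 2 UMIs each and Tapbp 4 UMIs. Psmb9 and Nlrc5 had 0 UMIs, which against a floor of 3 UMIs made Psmb9 at least 11.7-fold and Nlrc5 at least 3.2-fold lower than in ECs. The log2 ratio to ECs was -4.92 (-8.12 to -3.22) for Psmb8, whereas that of its constitutive counterpart Psmb5 was 0.93 (0.58 to 1.28). Psmb7 was likewise higher, at 209 CPM against 99.6, and Psmb6, the counterpart of Psmb9, was at 160 against 147 (0.12, -0.39 to 0.59). How much of the heavy chain and B2m signal was free RNA from ECs was not tested. None of the 29 was counted as an EC. Another 14 barcodes of this library had 4 melanoma markers or more with at least 5 UMIs of Pecam1 and Cdh5, and 7 of them were among its ECs.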

How the data were processed

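Each library was deposited as an unfiltered matrix of counts, in which a value is the number of UMIs of a gene in a barcode. Per the labels, Cell Ranger 7.2.0 and mm10 were used by the authors. An older version stands in the study's methods. Whether intronic reads were counted is not given in the sources used here. A UMI marks 1 captured RNA molecule. The libraries held 124085451 to 140601123 UMIs. The 10 genes and the related lists were chosen with earlier results of these data known. Every related list was reported as a whole. From each list, up to 4 genes with the largest absolute log2 ratio at 30 h and up to 2 at 6 h were named, as were the 10 genes most like the summed level.

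UMIs of the EC barcodes were summed per library or class and scaled to CPM (scipy 1.17.1, pandas 2.3.3). Sums had exact Poisson, ratios exact conditional binomial and shares exact Clopper-Pearson intervals. Differences are log2 ratios of (CPM + 1), with 0.32 as the limit of size and no p-value, since each group had 1 library. Scrublet (scanpy 1.11.5) marked 7.61% to 9.20% of barcodes as doublets, a share set at 0.8% per 1000 barcodes, and these were left out only as an alternative. Barcodes reaching several classes (39 to 63 per library) or none (991 to 1153) were in no class. The ratio and thinning steps were run on simulated counts with Poisson error only. Such counts hold no variation between cells or libraries, so they check the computation alone. GENCODE M21 held 32158 of the 32285 gene IDs. The alternatives were other scalings, filters, pseudocounts and sets of barcodes.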

Additional observations from a re-analysis of the deposited data

How the results depend on the processing

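The 6 h median of the 10 genes (0.30) lay between 0.28 and 0.30 under 12 alternatives. The 30 h median against control (-0.06) was -0.024 with median-of-ratios size factors and -0.035 with mitochondrial and ribosomal RNA-like genes taken out of the total. Against 6 h it (-0.29) was -0.26 under both, and -0.27 with all barcodes of at least 300 genes and without the interferon-high barcodes. No value past the limit changed direction. Of single genes, B2m at 30 h against control kept its sign in 7 of 12 alternatives and Psmb10 at 30 h against 6 h in 11 of 12, and every other gene kept it in all 12. At a limit of 1.5-fold, 0 of the 10 genes passed at 6 h or at 30 h against control, and 2 were lower at 30 h than at 6 h. The share of all genes past 1.5-fold was not counted, so these counts have no background. With 10 CPM added, 1 gene was lower at 30 h against control, without Nlrc5. With size factors, the reduced total or without interferon-high barcodes, 1 gene (Tapbp) was higher at 30 h than at 6 h, and 4 rather than 5 were lower. Psmb8 lost that call in 8 of 12 alternatives. At 6 h, H2-K1 was no longer past the limit as the mean of single-barcode CPM or thinned to 2000 UMIs, which left 4 genes. With no filter on low values, 1087 genes were higher and 1000 lower at 6 h, and 2096 were higher at 30 h against control and 2193 against 6 h. In artery-like barcodes the 30 h median was 0.11 with the marker minimum doubled and 0.00 with size factors, against -0.06. With size factors it was -0.016 in gCap-like (-0.045), -0.027 in aCap-like (-0.092) and 0.16 in vein-like barcodes (0.11). Without doublets the LEC-like median was 0.17 at 6 h (0.00) and 0.29 at 30 h (0.13), within the averaged counting limits of its middle genes. The cause of these shifts was not tested. No paired analysis was possible because each group had 1 library. Leaving out a replicate was not possible for the same reason. Depth limits the LEC-like values, which rest on 52 to 70 barcodes.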
